A study of Monodelphis domestica with 27 samples.

Results

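Interscapular fat was compared with inguinal fat inside the same animals of Monodelphis domestica, the gray short-tailed opossum, which is a laboratory marsupial. The libraries were chosen by their labels alone: those titled iscWAT and those titled iWAT that carry the same animal number. This gave 12 of the 27 libraries of the series, in 6 pairs. Of the animals, 1764 (female) and 1766 (male) were 6 weeks old, and 1731 and 1732 (female) and 1737 and 1743 (male) were 10 weeks old. All were untreated, laboratory-bred animals housed at 26 °C with free access to food, and no allele or agent is named for any of them. The series also holds anterior subcutaneous fat, which 5 of the 6 animals share, and 2 interscapular and 4 inguinal libraries of animals without the other depot.

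The position of a fat depot matters because depots differ in developmental origin and in what their cells do. White fat stores triglyceride in large droplets and releases fatty acids and hormones. In newborns and small adults of many placental mammals, the depot between the shoulder blades is brown fat, whose mitochondria are uncoupled to make heat, whereas inguinal fat is subcutaneous white fat that can acquire heat-producing cells in the cold. The labels name the depot of the opossum iscWAT, that is, as a white fat.

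Each library was deposited as whole-number read counts for 34985 Ensembl gene identifiers. The files do not pair these identifiers with gene names, and 0 of the 32665 genes in the available RefSeq table carry an Ensembl identifier. No gene can therefore be named by function, the labelled tissues could not be checked against fat, brown fat, muscle or immune markers, and genes are given by identifier. Reads of overlapping or near-identical genes, or of antisense partners, may be mixed in any of them, since the strand setting of the counting is not given in the sources used here.

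The depots may also differ in how their libraries were made. Per the labels' protocol, some libraries of the series were sequenced paired-end from bead-selected polyadenylated RNA and others single-end, with a NUGEN kit, from total RNA, and no library is assigned to either kit. Columns of the 8 interscapular files are named by a barcode, the code iWAT and an animal number, whereas the inguinal files use another form. For the 6 pairs the animal number in the interscapular column name is that of the labels, but the depot code in all 8 is the inguinal one, and the depot was taken from the labels. A possible cause of every interscapular-to-inguinal difference below is therefore a difference in library preparation, and depot and preparation cannot be told apart.

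Interscapular libraries were shallower and yet held more genes. Total counts ran from 3416823 to 5705448 in the 6 interscapular libraries and from 11030268 to 12215987 in the 6 inguinal ones, which did not overlap. After every library was thinned at random to 3400000 counts, 19134 ± 2217 genes had at least 1 count in interscapular fat (SD, n = 6) and 16217 ± 314 in inguinal fat (SD, n = 6). The interscapular library was the higher in 6 of 6 animals (exact sign-flip permutation test over animals, two-sided p = 0.03125, the smallest that 6 animals allow, and 0.0625 after adjustment over 6 library measures). None of the 6 measures passed 0.05 after adjustment, which this number of animals could not reach for a measure unless at least 4 of them were at the smallest p. The interscapular library of animal 1766 stood apart with 23393 genes, against 17301 to 19473 in the other interscapular libraries. In counts as deposited the depots differed by 1822 genes on average, and by 1107 without animal 1766. Of the genes in the thinned library of 1766, 2786 had no count in any other interscapular library, against 218 to 696 for the others. Animal 1737 had the next highest number, and the depot counts below are also given without these animals. Leaving them out was decided after the data had been seen.

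**Figure D1:**
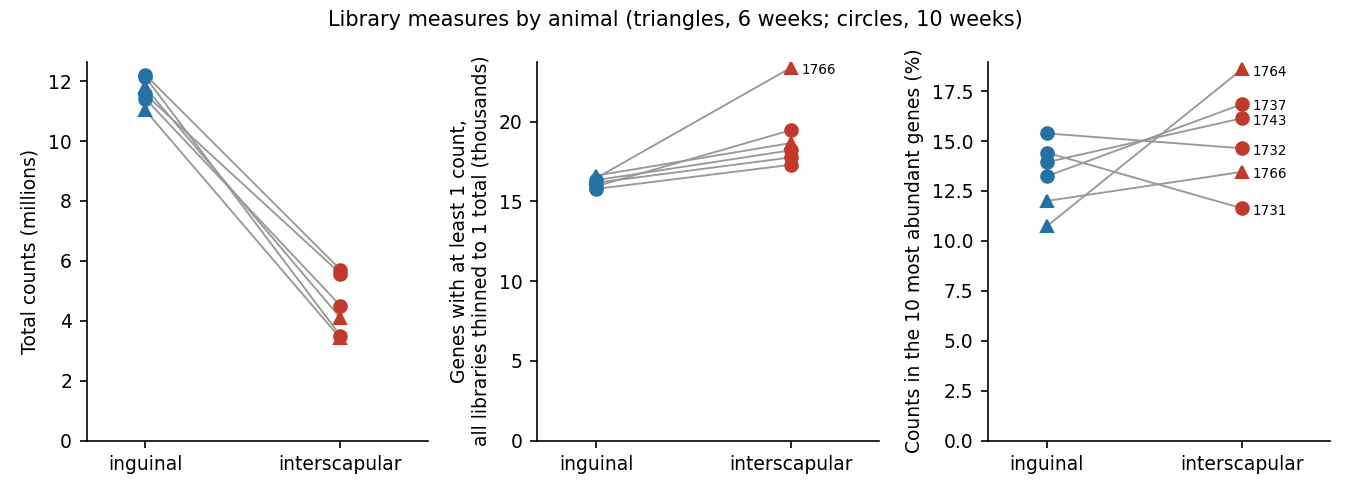
Total counts, genes with at least 1 count after thinning to 3400000 counts (axis units as labelled) and the share of counts in the 10 most abundant genes (%), for the inguinal (blue) and interscapular (red) library of each of 6 animals joined by a line. Triangles are 6-week and circles 10-week animals. Interscapular libraries have fewer counts and more genes in 6 of 6 animals, with animal 1766 highest at 23393 genes.

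The concentration of the counts in few genes was less clearly different. The 10 most abundant genes of each library took 15.2% ± 2.50 of the counts in interscapular fat (SD, n = 6) and 13.3% ± 1.69 in inguinal fat (SD, n = 6). The interscapular share was the higher in 4 of 6 animals (exact sign-flip permutation test, two-sided p = 0.25, adjusted p = 0.3). The mean difference was 1.93 percentage points, and 0.746 without animal 1764. The depots put different genes on top: of the 10 genes with the highest mean share in each depot 6 were the same, which is 60% of each list, and of the 100 highest 51, or 51% of each list. The 100 leading genes of inguinal fat held 28.9% of its counts and 18.8% of the interscapular counts. The 100 leading genes of interscapular fat held 29.6% of its counts and 24.4% of the inguinal ones.

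How far apart the depots lie was measured as the share of counts that would have to be assigned to other genes to turn one library into another. Between the depots of 1 animal this share was 38.7% in animal 1764, 40.5% in 1766, 43.9% in 1731, 37.0% in 1732, 36.4% in 1737 and 32.1% in 1743. Between different animals of 1 age it ran from 13.6% to 24.9% within interscapular fat and from 9.29% to 13.9% within inguinal fat, over 7 pairs of libraries each. The smallest distance between depots thus lay above the largest distance between animals. Thinning to 1 total left these ranges at 32.2% to 43.9%, 13.7% to 25.0% and 9.67% to 14.2%. Animals 1731 and 1732, which had the closest interscapular libraries, both differed more from animals 1737 and 1743 than from each other. The largest single contribution came from ENSMODG00000038876, at 5.37% of the difference between the mean profiles, and it took 464 genes to make up 50% of that difference.

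**Figure D2:**
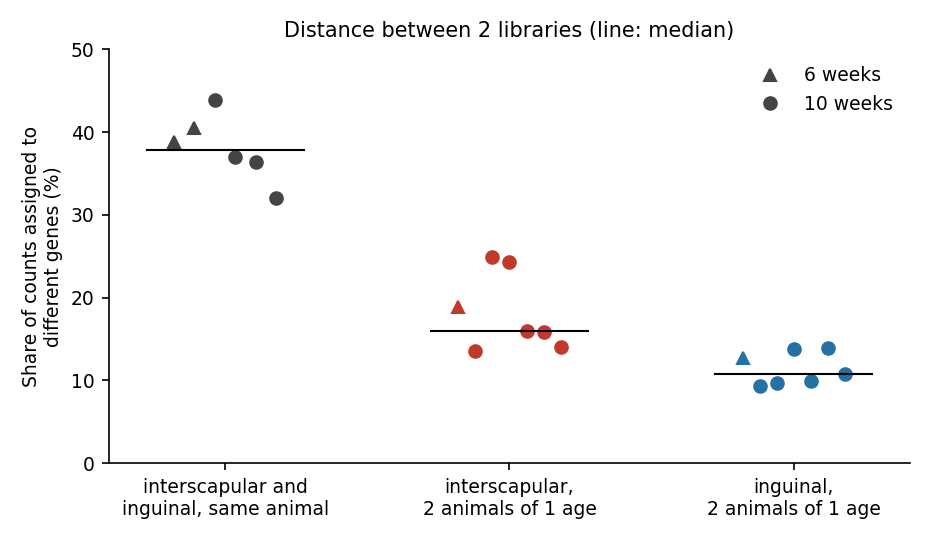
Share of counts assigned to different genes (%, vertical axis) between the interscapular and inguinal library of 1 animal, and between libraries of 1 depot from different animals of 1 age. Each point is a pair of libraries and the line is the median: 37.9% between depots, 15.9% within interscapular and 10.7% within inguinal fat.

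Most genes differed between the depots. Counts were compared gene by gene with edgeR's quasi-likelihood test, with the animal as a block so that each animal serves as its own control, and a gene was called at a Benjamini-Hochberg adjusted p under 0.05. Of 15658 genes tested, 5586 (35.7%) were higher and 5397 (34.5%) lower in interscapular than in inguinal fat, 70.1% in all. The split between higher and lower depends on the scaling and the filter. DESeq2 called 5923 higher and 5208 lower. Without genes over 1% of the counts of any library the numbers were 5432 and 5555, and with no filter 5438 and 5473 of 28287 tested. The median absolute log2 fold change of all genes tested was 1.09 (median SE 0.20). Genes higher in 6 of 6 animals numbered 4863 (31.1% of those tested) and genes lower in 6 of 6 numbered 5066 (32.4%), and these include 9718 of the 10983 called genes. For 3602 genes (23.0% of those tested) every interscapular value lay above every inguinal value, and for 3632 (23.2%) every one lay below.

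The called genes were counted by the size of their difference. A low-abundance gene can pass the filter through the depot in which it is higher, so the balance of higher and lower genes at each size describes the genes that could be tested and supports no difference in size between them. Called genes with at least a 2-fold difference numbered 4141 higher (26.4%) and 3513 lower (22.4%). At 4-fold the numbers were 2340 (14.9%) and 1116 (7.13%), and at 16-fold 821 (5.24%) and 114 (0.728%). The median log2 fold change was 1.69 among the genes that were higher and -1.28 among those that were lower. With a filter of at least 1 CPM in at least 6 libraries, the numbers at 2-fold were 3415 higher and 3347 lower. Some of the called genes had 0 counts in all 6 libraries of a depot: 199 in inguinal and 28 in interscapular fat. With their folds set to the lower bound given by 3 counts over the 6 libraries, 808 genes were higher and 105 lower by at least 16-fold, and the medians stayed at 1.69 and -1.28. Without animals 1766 and 1737 the balance at 2-fold turned, with 3411 genes higher and 3484 lower. In that fit 599 were higher and 120 lower at 16-fold, and 4342 and 4738 were called in all (60.4% of 15036 tested). Of the 10983 genes called with 6 animals, 8991 were called in the same direction with those 4.

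The balance of higher and lower genes differed with abundance. Abundance is given as CPM, counts per 1000000 counts of the effective library size. Among 1235 tested genes with a mean under 1 CPM, 508 were higher and 120 lower, with a median log2 fold change of 1.70 over all of them. A gene this low can pass the filter through the depot in which it is higher, so this split describes which genes could be tested and supports nothing more. Among 4735 genes from 1 to 10 CPM the counts were 1613 higher and 1241 lower. Among 7778 genes from 10 to 100 CPM they were 2843 and 3189, and among 1910 genes of at least 100 CPM 622 and 847. The median log2 fold change of the last 2 bands was -0.08 and -0.24. Over all genes tested the median was 0.05, and it ran from 0.042 to 0.103 with other size factors. A value as small as -0.08 can thus depend on the scaling. Without animals 1766 and 1737 the medians from the lowest to the highest band were 1.15, 0.14, -0.12 and -0.26. Of the 1235 genes in the lowest band only 653 were tested in that fit, so its 2 medians cover different sets of genes. The number of genes detected moves with the lowest band, and its part in that result was not tested.

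A gene with 0 counts throughout a depot can pass the filter only through the other depot. The direction of such genes was therefore fixed in advance, and their numbers support nothing more. With at least 10 counts required in every library of the other depot, 17 genes were at 0 in inguinal and 18 in interscapular fat (26 and 6 after thinning). Of the 199 called genes (15658 tested) with 0 counts in every inguinal library, 120 had counts in all 6 interscapular libraries. The interscapular means of the 199 had a median of 1.47 CPM and reached 74.6 CPM. The highest value was that of animal 1766 for 117 of the 199, and 98 were still called without animals 1766 and 1737. Of the 28 called genes with 0 counts in every interscapular library, 25 had counts in all 6 inguinal libraries, with a median of 2.63 CPM and a highest mean of 47.0 CPM, and 24 were still called.

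**Figure D3:**
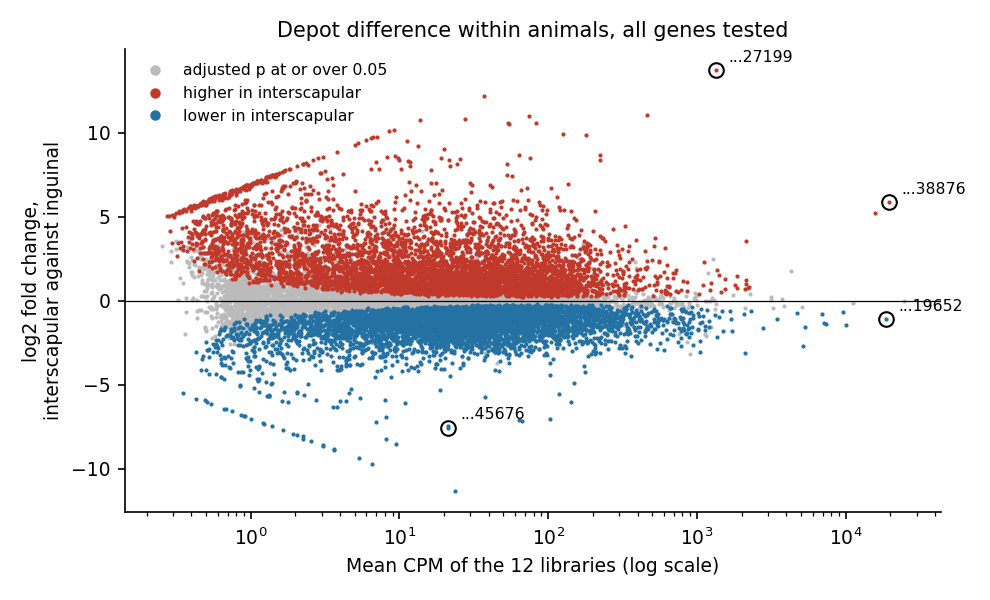
log2 fold change of interscapular against inguinal fat (vertical axis) against mean CPM of the 12 libraries (horizontal log axis) for 15658 genes. Red genes were called higher (5586) and blue genes lower (5397) in interscapular fat, grey genes were not called, and circles mark the 4 identifiers described in the text by their last digits.

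ENSMODG00000038876 had the largest rise in its share of the library. It stood at 49794 CPM in animal 1764, 38098 in 1766, 25728 in 1731, 33687 in 1732, 41889 in 1737 and 42662 in 1743 in interscapular fat. In inguinal fat it stood at 726, 859.7, 743, 531, 608 and 491 CPM in the same order. The depots did not overlap, and the animals lay within a narrow range in each. It took 3.89% ± 0.622 of all counts in interscapular fat (SD, n = 6) and 0.0647% ± 0.0138 in inguinal fat (SD, n = 6). The paired fit put this at 5.87 on the log2 scale (SE 0.27; edgeR adjusted p = 1.031e-06). It was the most abundant gene in every interscapular library.

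ENSMODG00000027199 had the largest fold change among genes with a mean of at least 10 CPM and the same sign in 6 of 6 animals. Its interscapular values fell into 2 levels: 3430 CPM in animal 1764, 4117 in 1766, 4813 in 1731 and 3570 in 1737, but 90.1 in 1732 and 90.6 in 1743. The low and the high level each held animals of both sexes. In inguinal fat it had 1 to 3 counts in each library, or 0.0880 to 0.239 CPM, in animals of either level. The summed counts were 67938 and 10, a ratio of 17263 per effective library size (95% exact interval 9386 to 36000, counting error only). Its fitted log2 fold change was 13.73 (SE 0.83, edgeR adjusted p = 2.7375e-06), a value that depends on the few inguinal counts.

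ENSMODG00000045676 had the largest fall under the same conditions. Its inguinal values lay close together, at 40.3 CPM in animal 1764, 38.5 in 1766, 48.3 in 1731, 40.5 in 1732, 38.1 in 1737 and 47.8 in 1743. In interscapular fat it had 0 counts in animals 1764, 1766, 1737 and 1743, 1 count in 1731 (0.254 CPM) and 5 counts in 1732 (0.863 CPM). The summed counts were 6 and 2905, so the inguinal level was 191 times the interscapular one (95% exact interval 87.4 to 520 by counting alone). The fitted log2 fold change was -7.57 (SE 0.54, edgeR adjusted p = 5.7076e-06), and -9.41 without animal 1732.

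ENSMODG00000019652 had the largest loss in share of counts. In inguinal fat it stood at 12424 CPM in animal 1764, 12532 in 1766, 39067 in 1731, 35156 in 1732, 31120 in 1737 and 22367 in 1743. In interscapular fat it stood at 8486, 4526, 10304, 16566, 16873 and 14110 CPM in the same order. The depots overlapped over all animals. The interscapular value was the lower in 6 of 6 animals, but a call and the same sign in all animals were conditions for naming this gene. Its mean share was 1.19% ± 0.467 in interscapular and 2.49% ± 1.09 in inguinal fat (SD, n = 6 each), and the paired fit gave -1.09 on the log2 scale (SE 0.23; edgeR adjusted p = 0.0027104). Within each depot the 6-week animals had the lowest values.

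**Figure D4:**
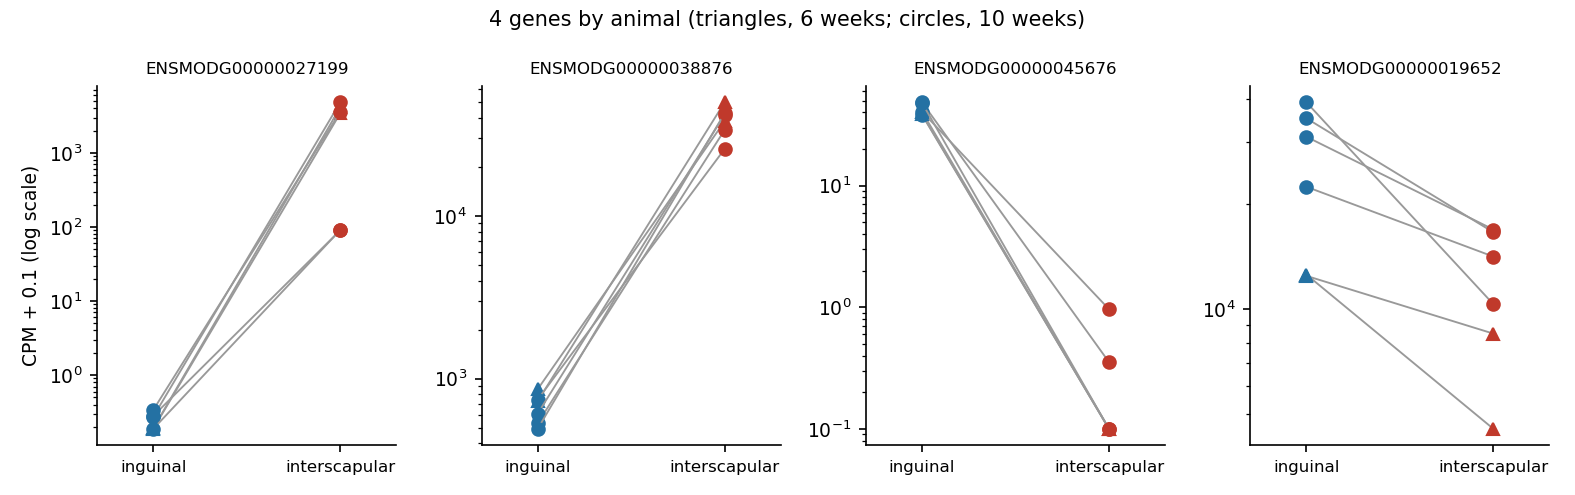
CPM plus 0.1 (log axis, a separate scale per panel) of the 4 identifiers in inguinal (blue) and interscapular (red) fat, with the libraries of 1 animal joined. Triangles are 6-week and circles 10-week animals. ENSMODG00000027199 lies near 90 CPM in 2 interscapular libraries and from 3430 to 4813 CPM in the other 4.

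Anterior subcutaneous fat of the 5 animals with all 3 depots placed these genes further. Its files are named in the form of the inguinal ones, and the comparisons share libraries, so their values are given side by side only. ENSMODG00000038876 had a median of 527 CPM in anterior, 769.5 in inguinal and 40329 in interscapular fat, scaled over all libraries of the series. Interscapular fat exceeded anterior fat by a log2 fold change of 6.15 (SE 0.24), and inguinal fat by 5.83 (SE 0.33). ENSMODG00000045676 had medians of 33.3 CPM in anterior, 44.3 in inguinal and 0 in interscapular fat. ENSMODG00000027199 was at 0 to 0.166 CPM in anterior fat. For these 3 genes the anterior level was much closer to the inguinal than to the interscapular one.

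ENSMODG00000019652 behaved otherwise, with medians of 11256 CPM in anterior, 24755 in inguinal and 10568 in interscapular fat. The log2 fold change was 0.01 (SE 0.30, edgeR adjusted p = 0.9786) for interscapular against anterior and -1.21 (SE 0.25, edgeR adjusted p = 0.0089616) for anterior against inguinal fat. The root mean square log2 difference between depots was taken over the 15658 genes tested in the pairs. That set was filtered without the anterior libraries, so genes found mainly in anterior fat may be missing from it. Between interscapular and inguinal fat the difference was 1.48 in animal 1764, 1.64 in 1766, 1.76 in 1731, 1.54 in 1732 and 1.31 in 1743. Between interscapular and anterior fat it ran from 1.26 to 1.39, and between anterior and inguinal fat from 0.686 to 1.17. Animal 1743 was the only one of the 5 in which interscapular fat lay nearer to inguinal (1.31) than to anterior fat (1.39).

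The depot difference was then examined in libraries that were not part of the pairs. These were the 2 interscapular and 3 inguinal 6-week libraries of animals lacking the other depot, compared without a block. The interscapular library labelled animal 1727 has 1729 in its column name, and inguinal fat of animal 1729 is in this comparison, so by the column name these libraries would come from 1 animal. This comparison was added after the data had been seen and shares no library with the pairs. It tested 15320 genes and called 3740 higher and 4204 lower (51.9%). Of the 5586 genes higher in the pairs 5218 were tested there; 5169 had the same direction (99.1%) and 3599 were called in it. Of the 5397 lower genes 5345 were tested; 5319 had the same direction (99.5%) and 4020 were called in it. Called genes in the opposite direction numbered 0 in each list. The higher genes differed by less outside the pairs, with a median log2 fold change of 1.28 against 1.58 in the pairs, and of 3.84 against 5.14 for those at least 16-fold higher. The lower genes had medians of -1.23 outside and -1.27 in the pairs, and those at least 16-fold lower had -5.772 and -5.495. These lists were picked by their values in the pairs, so the medians are not compared on equal terms. The libraries outside were also all 6-week, whereas 4 of the 6 pairs were 10-week. The reason for the differences in size was not tested. Over all 14931 genes tested in the pairs and outside them, called or not, 92.2% had the same direction. The same split of file forms runs through these libraries, so depot and preparation cannot be told apart there either.

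The 4 identifiers kept their direction outside the pairs, with sizes that differed. ENSMODG00000038876 stood at 32319 and 40748 CPM in the interscapular libraries and at 660 to 818 CPM in the inguinal ones (log2 fold change 5.61, SE 0.29, edgeR adjusted p = 0.00050925). ENSMODG00000045676 stood at 0.319 and 0.420 CPM against 35.9 to 48.9 CPM. ENSMODG00000027199 stood at 105 and 98.7 CPM, at the lower of its 2 interscapular levels, against 0.0717 to 0.468 CPM. Its log2 fold change was 8.53 (SE 0.43), below the 13.73 of the pairs. ENSMODG00000019652 stood at 4052 and 5532 CPM against 7788 to 11108 CPM (log2 fold change -0.91, SE 0.29, edgeR adjusted p = 0.042344).

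**Figure D5:**
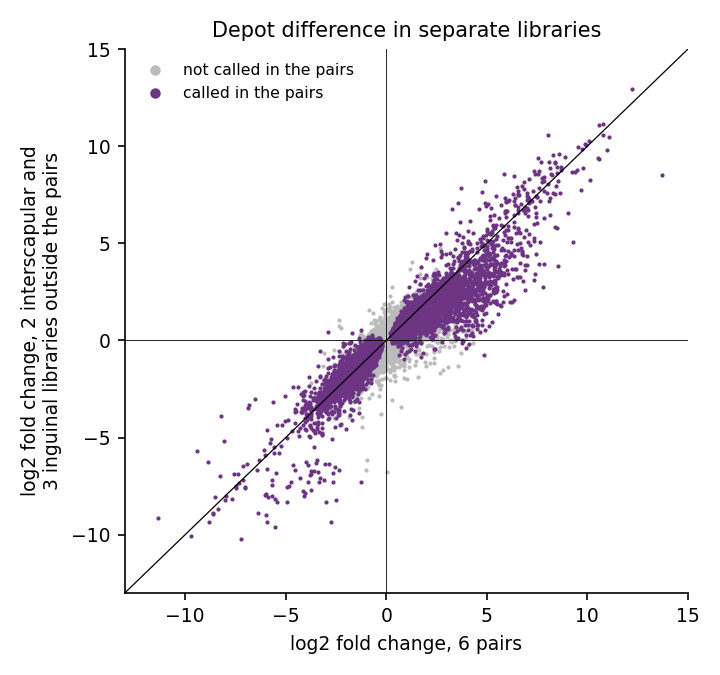
log2 fold change of interscapular against inguinal fat in the 6 pairs (horizontal axis) and in 2 interscapular and 3 inguinal libraries outside the pairs (vertical axis), for 14931 genes tested in each. Purple genes were called in the pairs, the line marks equal values, and genes higher in the pairs had a median of 1.58 there and 1.28 outside.

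Whether the depot difference changed with age was tested by a depot-by-age term, in which an offset common to the interscapular libraries of both ages cancels. No gene passed: edgeR called 0 of 15658 (0.0%), with 254 (1.62%) at an unadjusted p under 0.05, and DESeq2 called 0, with 180 at an unadjusted p under 0.05. This comparison set 4 animals against 2. With no difference at all, a share of 0.05 would be expected under that threshold on average. The share was smaller, so 0 calls do not show that the ages are alike. When the ages were fitted apart, 4543 genes were called in the 2 pairs at 6 weeks (31.8% of 14274) and 9640 in the 4 pairs at 10 weeks (64.7% of 14904), with median absolute log2 fold changes of 1.08 and 1.06. Of 2394 genes higher at 6 weeks 2334 were tested at 10 weeks, and all 2334 had the same direction there. Of 2149 lower genes 2147 were tested, and 2146 had the same direction. Among all 14016 genes tested at both ages 91.9% had the same direction. The root mean square log2 difference between the depots averaged 1.501 ± 0.190 over the 4 older animals (SD, n = 4), and the 2 younger animals had 1.47 and 1.63 (exact permutation test, two-sided p = 0.8, where the smallest possible is 0.1333).

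The gene with the smallest p of the age term in each direction, among those with a mean of at least 10 CPM, is described next. These are extremes picked from many genes, a choice that favours a gap between the ages, and do not show the usual size of the term. ENSMODG00000001972 was higher in interscapular fat in 6 of 6 animals, by 1.06 and 0.53 on the log2(CPM + 1) scale in the 6-week animals 1764 and 1766. The same difference was 2.86, 1.82, 2.70 and 2.27 in the 10-week animals 1731, 1732, 1737 and 1743. The ages did not overlap, but the term of 1.73 (SE 0.38) had an edgeR adjusted p of 1.0. In animal 1766 its inguinal value was 48.8 CPM, against 5.66 to 13.8 CPM in the others. ENSMODG00000018312 differed by 2.16 and 2.86 at 6 weeks and by 1.02, 1.44, 1.06 and 0.98 at 10 weeks in the same order (term -1.48, SE 0.31, edgeR adjusted p = 1.0).

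The depot difference was likewise compared between the 3 males and 3 females. Animals 1766 and 1737, whose interscapular libraries held the most genes after thinning, are both male. Sex and this trait of the libraries cannot be fully told apart. A depot-by-sex term called 0 of 15658 genes (0.0%) with edgeR, with 452 (2.89%) at an unadjusted p under 0.05, and 0 with DESeq2, with 503 at an unadjusted p under 0.05. This share too lay below 0.05, so 0 calls do not show that the sexes are alike. Among genes with a mean of at least 10 CPM, ENSMODG00000010342 had the smallest p, so its values are an extreme picked from many. It was higher in interscapular fat by 1.57, 1.71 and 1.58 on the log2(CPM + 1) scale in females 1764, 1731 and 1732 and by 0.48, 0.37 and 0.62 in males 1766, 1737 and 1743 (term -1.16, SE 0.18, edgeR adjusted p = 1.0). Inguinal values of ENSMODG00000010342 were 60.4 and 56.9 CPM in males 1766 and 1737, against 20.7 to 29.7 CPM in the other animals. Without these males, which leaves male 1743 alone, the term of that gene was -0.98. ENSMODG00000024965, the first in the other direction, was far lower in interscapular than in inguinal fat in every animal, at 4.82 to 20.7 against 131 to 264 CPM. The difference was -5.19, -4.99 and -4.50 in the females and -3.61, -3.85 and -3.62 in the males (term 1.29, SE 0.25, edgeR adjusted p = 1.0, and 0.055815 with DESeq2).

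The spread between animals was described gene by gene, without a test. Over 7875 genes with at least 10 CPM in each depot after thinning, the SD of log2(CPM + 1) between the 6 animals had a median of 0.32 in interscapular and 0.27 in inguinal fat, and it was the larger in interscapular fat for 60.7% of genes. Among the 4 animals at 10 weeks the medians were 0.32 and 0.22, with 67.8% of genes, and without animals 1766 and 1737 they were 0.32 and 0.27, with 58.7%. On the first principal component of log2 CPM, with 63.7% of the variance, interscapular libraries ran from 67.3 to 128 and inguinal ones from -114 to -93.3. Interscapular libraries were spread more widely along it, but this component was taken from unthinned counts, in which the interscapular libraries were the shallower.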

How the data were processed

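RNA was extracted with Qiazol and sequenced, per the labels' protocols. The deposited files hold counts of reads per gene, not normalized by the authors as far as their values show, since they are whole numbers with totals that differ. STAR is the only tool that the submitters' processing notes name; its version, the genome build, annotation and counting tool: not given in the sources used here. Chi-square per degree of freedom between replicates ran from 21.52 to 68.03 over 14 pairs, so each library counted as 1 replicate.

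Tests were run in R 4.3.3 with edgeR 4.0.16 (glmQLFit, then glmQLFTest, after TMM scaling and filterByExpr with a minimum count of 10 and a minimum total of 15) with a term per animal; SE is the absolute log2 fold change over the square root of F. CPM was scaled by TMM. Scripts were tested on simulated data. The alternatives were DESeq2 1.42.0, other size factors and filters, thinning, other sets of animals and fits with no animal term. The pairing comes from the animal numbers in the labels. Over 14457 genes, deviations from the group means correlated at -0.02 on average between the depots of 1 animal (-0.27 to 0.33) and at 0.07 between animals, and 1 of 6 animals matched its own inguinal library best. These values gave no sign that the depots of 1 animal resembled each other.

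Identifiers were named by rule. In each direction these were the gene with the largest fold and that with the largest difference in mean share of counts, among called genes with a mean of at least 10 CPM and the same sign in all animals. For the age and sex terms it was the gene with the smallest p at that mean. The members and rules were chosen with earlier results of these data known. Gene lists by symbol were not used, as 0 identifiers matched. The p-values rest on 6 animals.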

Additional observations from a re-analysis of the deposited data

Results flagged for a closer look

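Of 72 groups of 4 or 6 values checked with Dixon's test, 6 held a sample far from the others; chance flags about 1 in 20. The interscapular library of animal 1766 had 23393 genes with a count after thinning, against 17301 to 19473 in the other 5. The same library had the highest interscapular value of ENSMODG00000024965, 20.7 CPM against 4.82 to 9.71 CPM. The inguinal library of animal 1766 had 48.8 CPM of ENSMODG00000001972, against 5.66 to 13.8 CPM. The interscapular library of animal 1732 had 0.863 CPM of ENSMODG00000045676, against 0 to 0.254 CPM, and with it the smallest depot difference of that gene, -4.48 on the log2(CPM + 1) scale against -5.61 to -5.29. Among 10-week inguinal libraries, that of animal 1737 had 56.9 CPM of ENSMODG00000010342, against 24.3 to 29.7 CPM.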

How the results depend on the processing

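The 10983 called genes, of 15658 tested, became 9927 to 10905 with each animal left out in turn (15228 to 15566 tested). With no animal block, 10702 of 14985 genes tested were called in the 12 libraries. In all 18 interscapular and inguinal libraries with no block, 11421 of 15009 were called. DESeq2 called 11131 of 15658. With a 7th pair made by the animal number in a column name, 11778 of 15920 were called. The last was chosen after seeing the data, because that library is labelled 1727 and its column 1729. None of the called genes was called in the opposite direction under any alternative. The 6-week animals alone, in 2 pairs, called 4543 of 14274 genes tested. Of the called genes 2389 were at least 2-fold higher and 2144 at least 2-fold lower. That fit differs from the main one in both the number of pairs and age, which cannot be told apart. There ENSMODG00000038876 had a log2 fold change of 5.82 (edgeR adjusted p = 0.057059) and ENSMODG00000019652 of -0.97 (edgeR adjusted p = 0.47919). With each animal left out, genes at least 2-fold higher numbered 3613 to 4095 and lower 3330 to 3706. The age term called 0 genes under all 17 alternatives and the sex term 0 to 1 with each animal left out; the 1 gene, without animal 1766, was ENSMODG00000008249 (log2 term 11.29, SE 0.56, edgeR adjusted p = 0.047261). The difference in the share of the 100 most abundant genes, 0.62 percentage points, ran from -0.35 to 1.79 with each animal left out, and was -0.20 without animal 1737. That of the depot distance between ages ran from -0.13 to 0.036, and was 0.022 without animal 1743. The replicate block changed no call on the age and sex terms (0 genes with no animal block). After thinning fewer genes passed the filter: 13959 were tested, against 15658 in the main fit, and 9929 of them were called.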
